A study of Mus musculus with 12 samples.

Results

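The nuclear-encoded subunits of respiratory complexes II, III and IV, cytochrome c and ATP synthase (complex V) were examined in RNA from the hypothalamic arcuate nucleus (ARC). Members were taken by gene symbol from the 38283 genes of the deposited table: the Sdh, Uqcr and Cox subunit names, Cyc1, Cycs and the Atp5 names, with Atp5s and Atp5sl left out. The rule found 48 genes, of which 4 belong to complex II, 9 to complex III, 1 is cytochrome c, 18 belong to complex IV and 16 to ATP synthase. Of these, 44 reached a mean of at least 1 FPKM (the fragments on a gene, scaled to its length and to how many fragments mapped) and were tested. Cox8b and Cox8c were listed at 0 in all 12 libraries, Cox7b2 had a mean of 0.322 FPKM, and the processed pseudogene Atp5l2 was above 0 in 1 library.

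The libraries came from 5 wild-type (WT) mice and 7 mice homozygous for R299Q γ2 (Homo), all male C57BL/6 animals aged 8 weeks with free access to food, with 1 library per mouse. R299Q γ2 is a point mutation knocked into Prkag2, the gene of the γ2 regulatory subunit of the energy sensor AMPK. It is carried in every cell of the body, and bulk ARC tissue does not show in which cell type a difference arose. A point mutation does not have to change the level of its gene, so FPKM values cannot check the genotype labels.

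Complexes II, III and IV pass electrons from succinate and ubiquinol to oxygen, with cytochrome c carrying them between complexes III and IV. Complexes III and IV pump protons as they do so, and ATP synthase lets the protons return through its rotating c ring to make ATP. All subunits of complex II are encoded in the nucleus, whereas complexes III, IV and V are built from nuclear and mitochondrial genes together. Several complex IV subunits exist as a ubiquitous isoform and a second one best known from heart, skeletal muscle, lung or testis, and 3 nuclear genes encode the same mature c subunit of ATP synthase.

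The libraries fell into 2 sets by the number of genes above 0. WT 1, WT 2 and Homo 1 to 5 listed between 15742 and 16467 genes, and WT 3 to 5, Homo 6 and Homo 7 between 18141 and 18635. They are called here the sparser and the fuller libraries. Neither the labels nor the study's methods name a batch that matches these sets, so the comparison is also given within each. The depth was read from the steps between low values for the fuller libraries, where 1 fragment per kilobase was worth between 0.0827 and 0.122 FPKM. The share of low values on a step was 26.2% in WT 3, 27.7% in WT 4 and up to 45.1% (WT 5). In the sparser libraries it was between 15.7% (Homo 2) and 24.6% (Homo 4). The sets were not clearly apart in this share, so the depth of WT 3 and WT 4 is also uncertain. WT 3 stood apart: it was the lowest of the 12 libraries for 31 of the 44 subunits (70.5%) and for 14.8% of all genes tested. It also had the lowest summed FPKM of the arcuate neuron markers, 1327 against a median of 3240 in WT and a range of 3454 to 5239 in Homo. This sum includes Npy (mean 1015 FPKM in WT and 1472 in Homo) and Agrp (301 and 445), so it also varies with their difference between genotypes. Tbx3, of the same list, went the other way (87.4 and 46.1), and was lower in Homo 2 (25.3) than in WT 3 (41.6). All 10 arcuate neuron markers and all 7 pan-neuronal markers had a mean of at least 1 FPKM. The summed pan-neuronal markers ranged from 800 (WT 3) to 1092 in WT and from 844 to 1147 in Homo. Microglia markers (8 of 8 with a mean of at least 1 FPKM) were also lowest in WT 3, with sums between 63.7 and 114 FPKM in WT (median 82.9) and between 87.4 and 159 in Homo (median 121). Oligodendrocyte markers (7 of 7) summed to between 89.3 and 556 FPKM in WT and between 155 and 409 in Homo, and red blood cell markers (5 of 7) to between 42.4 and 590 in WT and between 46.7 and 355 in Homo. Pituitary markers, of which 2 of 6 had a mean of at least 1 FPKM, summed to between 0 and 114 FPKM in WT, highest in WT 3, and to between 0 and 56.4 in Homo. Astrocyte markers (7 of 7) had a median sum of 352 FPKM in WT and 319 in Homo, and were lowest in Homo 3. Pericyte and smooth muscle markers (4 of 7) had medians of 26.4 and 23.4, also lowest in Homo 3. Those of tanycytes and ependymal cells (5 of 6) had medians of 19.5 and 11.9, and endothelial markers (6 of 7) 22.9 and 24.3. Both were lowest in Homo 5. The part of these differences in the results was not tested. In bulk tissue, fewer cells of a type and less RNA per cell cannot be told apart.

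Most subunits were among the most abundant transcripts of the ARC. On the FPKM scale, which is per length, the median subunit stood at the 97.0th percentile of the genes tested in WT, and 29 of 44 stood above the 95th. The catalytic β subunit of ATP synthase, Atp5b, had the highest mean, 1558 FPKM, followed by the ubiquitous subunit 4 of complex IV, Cox4i1, at 996. FPKM values differed widely within a complex, and the part of transcript length in this was not tested. In complex III, the small accessory subunit Uqcr10 had a mean of 511 FPKM and the Rieske iron-sulphur protein Uqcrfs1 one of 32.2. In complex II, the range was narrower, from 55.1 FPKM for Sdhd to 101 for Sdha. Cycs, the electron carrier itself, had a mean of 14.4 FPKM. The second isoforms Cox6a2, Cox6b2, Cox7a1 and Cox4i2 were also low, with means between 1.83 and 17.8 FPKM.

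**Figure D1:**
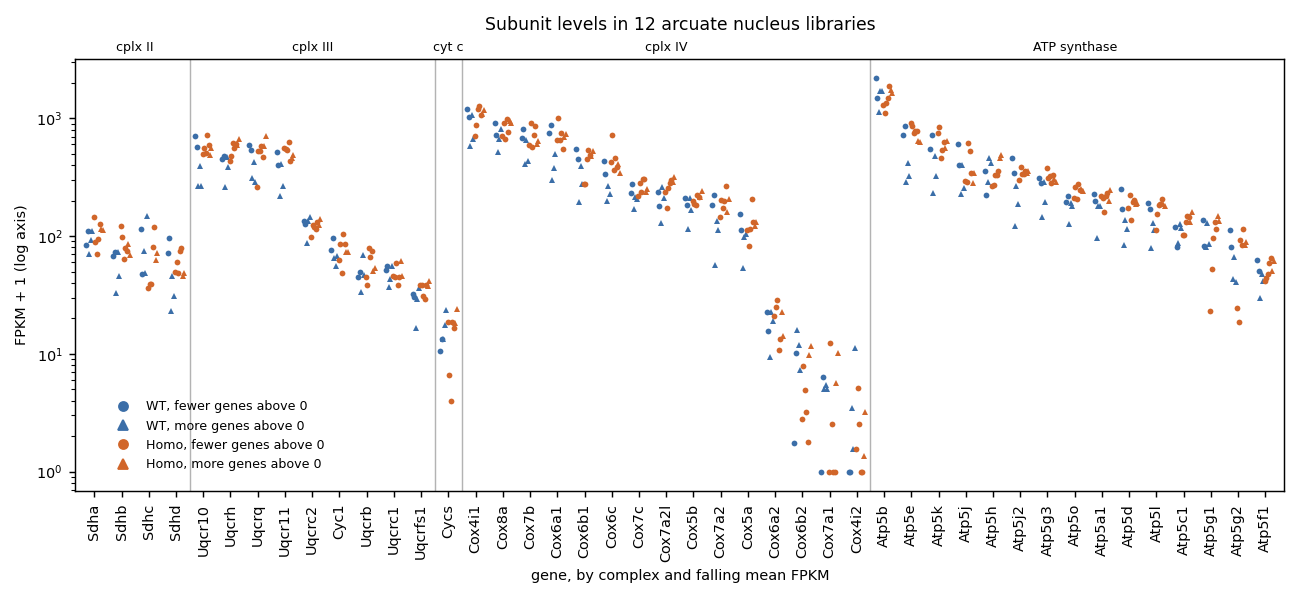
FPKM + 1 (log axis) of the 44 subunits tested in each of the 12 libraries, grouped by complex and ordered by mean. Points are single libraries, blue for WT and orange for Homo, circles for the sparser libraries and triangles for the fuller ones. The second isoforms of complex IV, from Cox6a2 to Cox4i2, lie far below the other complex IV subunits.

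Promoters of nuclear respiratory genes are known for binding sites of nuclear respiratory factor 1 (NRF1) and of the ETS factor GABP, and the windows of 250 bases before to 50 after the RefSeq start (GRCm38.p6) were searched for their core letters on both strands. A window was given for 36 of the 48 members. The NRF1 core GCGCATGC was present in 8 of the 36 (22.2%), against 3.05% of the 27025 genes with a window and 6.04% of the 9012 of them that were also tested for expression. The ETS core CCGGAAG was present in 12 (33.3%), against 9.93% and 19.3%. The YY1 core AAGATGGC was present in 3 members (8.33%, against 3.19% of all and 5.24% of those tested), the CREB site TGACGTCA in 2 (5.56%, against 2.03% and 3.60%) and the estrogen-related receptor site TCAAGGTCA in 2 (5.56%, against 0.466% and 0.366%). These searches used different letters that do not overlap each other, and a match is a run of letters, not a site shown to be bound. Matches in 5 members described later are printed as 30 bases on the strand of the gene, with the matched letters in capitals, to show where each lies. They are at chr4:140961206-140961235 (+), chr10:80406869-80406898 (-), chr6:50566611-50566640 (-), chr15:102671071-102671100 (-) and chr2:73911359-73911388 (-), in the order shown. The capitals are the NRF1 core in Sdhb, Cycs and Atp5g2, the ETS core in Uqcr11 and the estrogen-related receptor site in Atp5g3, another c ring gene. In Atp5g2 the NRF1 core occurs on both strands with shared letters. The gene positions given later come from another annotation than the RefSeq starts. By those positions, the Sdhb and Atp5g2 matches lie inside the gene and the others before it.
Sdhb: aagcccagtggGCATGCGCcctacgggccg
Uqcr11: ttctctcctccCCGGAAGtagatgtcaatg
Cycs: catgctagctcGCATGCGCgcgcacaaacc
Atp5g2: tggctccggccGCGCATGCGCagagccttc
Atp5g3: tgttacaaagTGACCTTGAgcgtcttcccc

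No subunit differed between Homo and WT at an adjusted p under 0.05 in limma, and the lowest adjusted p among them was 0.799. Most subunits had a higher mean in Homo, however, in every complex with several members. Counts of higher or lower means, here and below, are of the mean of log2(FPKM + 1). The mean of log2(FPKM + 1) was higher in Homo for 35 of 44 subunits against 49.3% of all 14017 genes tested. Their median log2 fold change was 0.27, against -0.01 over all genes. At an unadjusted limma p under 0.05, 7 subunits were higher and 0 lower, against 3.05% of all genes higher and 2.50% lower. These 7 were Sdhb, Uqcrh, Uqcr11, Cox6c, Atp5e, Atp5g3 and Atp5o. Over all genes, 0.00713% had an adjusted p under 0.05, which is 1 gene. By exact permutation of the genotype labels (two-sided, 792 relabellings), 8 subunits had a p under 0.05, all higher in Homo, against 3.01% of all genes. When labels were permuted only within the library sets (210 relabellings), 2 subunits had a p under 0.05, Uqcrh and Atp5o (both 0.0333). The share of all genes was not computed for that count. No subunit separated the genotypes fully, against 0.128% of all genes with every Homo library above every WT library and 0.0927% with every one below. The p-values measure the spread between libraries. With 1 library per mouse, differences between mice and between library preparations cannot be told apart. Subunits that share libraries are not independent of each other.

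**Figure D2:**
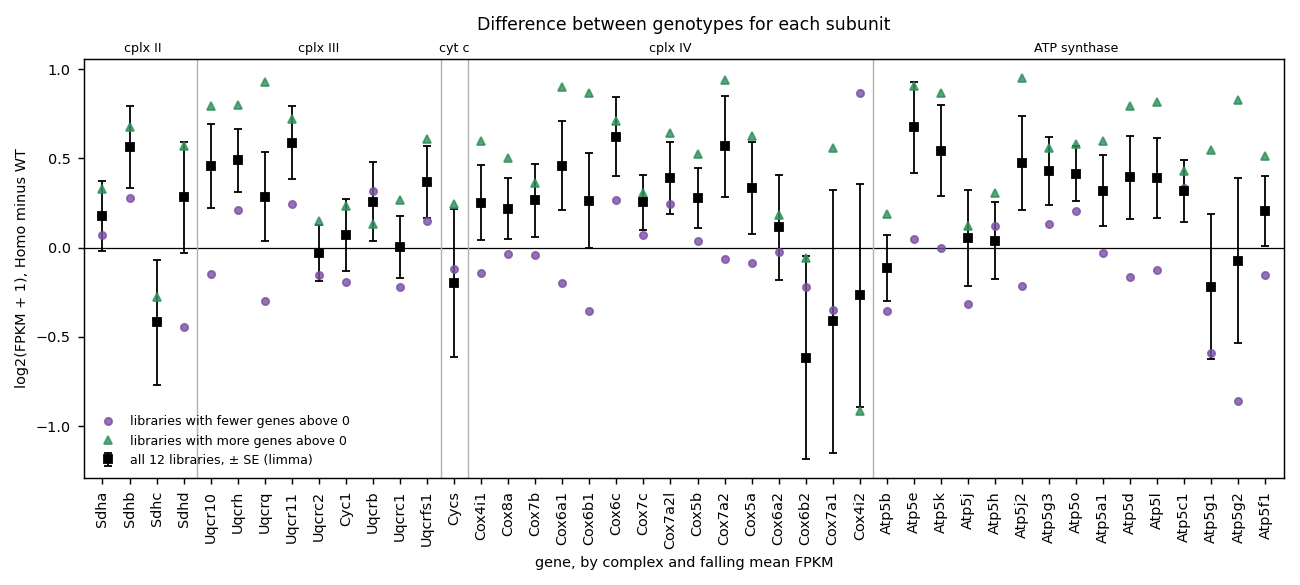
Difference between genotypes in log2(FPKM + 1), Homo minus WT, for each of the 44 subunits tested. Black squares with bars are the limma estimate over 12 libraries ± SE, purple circles the difference among the sparser libraries and green triangles that among the fuller ones. The triangles lie above 0 for 41 of 44 subunits and the circles for 16.

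The direction was not the same in both library sets. In the fuller libraries (3 WT, 2 Homo), 41 of 44 subunits had a higher mean in Homo, against 64.6% of all genes, with a median log2 fold change of 0.57 (0.13 over all genes). In the sparser libraries (2 WT, 5 Homo), 16 of 44 did, against 40.1% of all genes, with a median of -0.07 (-0.08 over all genes). Both sets gave a higher mean in Homo for 15 subunits (25.8% of all genes). The genotype difference was larger in the fuller libraries for 42 of 44 subunits, a count for which the share of all genes was not computed. All genes shifted the same way at the median. The median increase of the difference from the sparser to the fuller libraries was 0.49 for the subunits and 0.27 over all genes. An interaction term in limma had an unadjusted p under 0.05 for 9 of these 42, against 4.47% of all genes, and an adjusted p under 0.05 for 0, against 0.0428%, with 0.876 the lowest. With the library set as a second term, 5 subunits were higher at an unadjusted p under 0.05, against 2.66% of all genes, and the median was 0.22.

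The counts and medians were lower without WT 3. Then 31 of 44 subunits were higher in Homo, against 43.7% of all genes, and the median log2 fold change was 0.12 (-0.05 over all genes). Without WT 3, 4 subunits were higher at an unadjusted p under 0.05, against 1.77% of all genes. That count was 14 without WT 1 (3.91% of all genes) and 12 without WT 2 (3.72%). Among the fuller libraries, the median was 0.33 without WT 3 (2 WT, 2 Homo). The spread was also unequal. The SD of log2(FPKM + 1) was larger in WT for 36 of 44 subunits, with a median SD of 0.47 in WT and 0.29 in Homo, whereas 44.8% of all genes had the larger SD in WT. Without WT 3, it was larger in WT for 24 of 44, and the share of all genes was not computed without that library.

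**Figure D3:**
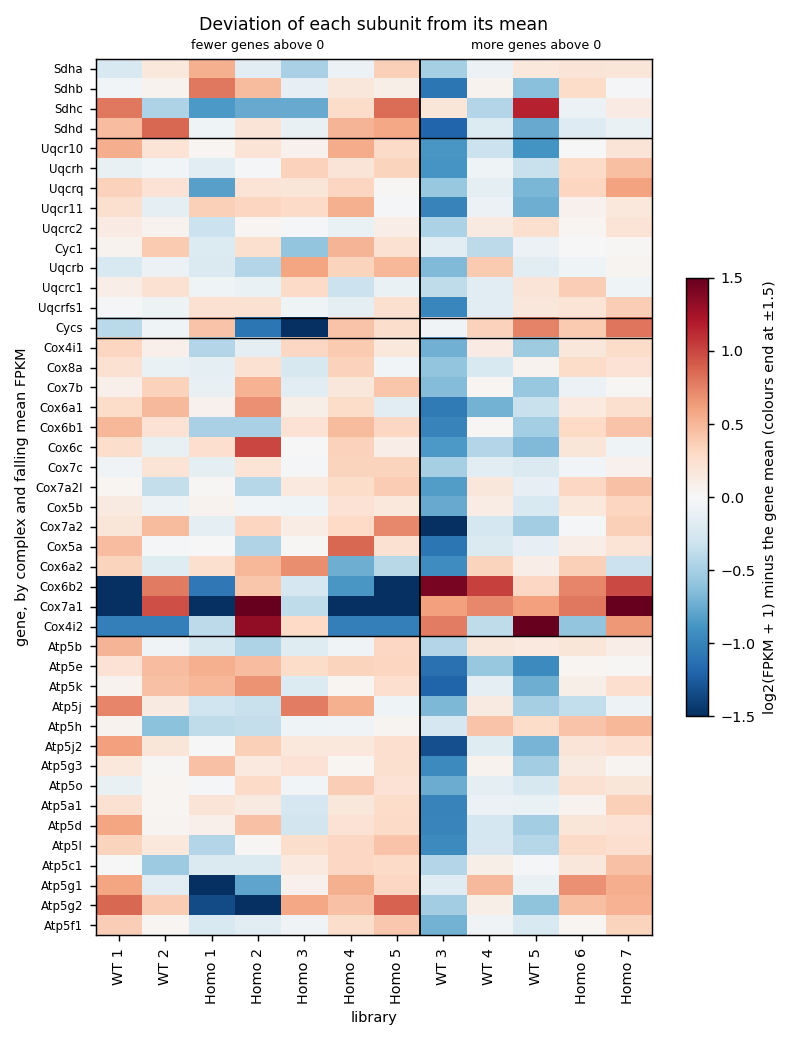
Deviation of log2(FPKM + 1) from the gene's mean over 12 libraries, for each subunit (rows, by complex) and library (columns, by library set and genotype), red above and blue below the mean. WT 3 is blue for most subunits, and it was the lowest library for 31 of 44.

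Complex II (succinate dehydrogenase) links the citric acid cycle to the respiratory chain, and its 4 subunits did not all have the same sign of difference. The median log2 fold change was 0.23, and it was -0.17 in the sparser libraries, where 2 of 4 were higher (40.1% of all genes). Sdhb, the iron-sulphur subunit (chr4:140961203-140979193, GRCm38), was at 66.9, 71.7, 32.0, 71.8 and 44.5 FPKM in WT 1 to 5. In Homo it had a lowest value of 63.3, a median of 77.7 and a highest of 121 FPKM. In 5 of 7 Homo libraries it was above every WT library, but the ranges overlapped. Mean Sdhb was 1.45 times as high in Homo, with a log2 fold change of 0.57 ± 0.23 (SE), an exact permutation p of 0.0303 and an adjusted limma p of 0.887. The exact p was 0.10 when libraries were permuted within the sets (210 relabellings). It was also above 0.05 without WT 3 (0.0939), WT 5 (0.0758), Homo 1 or 2 (0.0563), Homo 4 (0.0519) or Homo 6 (0.0584).

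Sdha, the flavoprotein that oxidizes succinate (chr13:74322254-74350280), was at 83.8, 110, 69.5, 92.5 and 110 FPKM in WT and between 70.0 and 143 in Homo (median 112). The groups overlapped, and its log2 fold change was 0.18 ± 0.20. The membrane anchors Sdhc and Sdhd hold the haem and the ubiquinone site. Sdhd (chr9:50596357-50603812) was at 71, 94.4, 21.9, 44.6 and 30.1 FPKM in WT and between 44.9 and 77.5 in Homo (median 49.0). All Homo libraries were above the WT median and none above the highest WT library, and the log2 fold change of 0.28 ± 0.31 turned to -0.44 in the sparser libraries.

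Sdhc (chr1:171127165-171150603) was the one complex II subunit with a lower mean in Homo. It was at 114, 46.9, 74.3, 47.9 and 146 FPKM in WT and between 35.4 and 118 in Homo, with a median of 61.3. The ranges overlapped widely. Its log2 fold change was -0.42 ± 0.35 with an exact permutation p of 0.314, and it was negative in both library sets (-0.41 and -0.28).

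Complex III (the cytochrome bc1 complex) had 8 of 9 subunits with a higher mean in Homo, and a median log2 fold change of 0.28. In the fuller libraries all 9 were higher, with a median of 0.61, and in the sparser ones 4 were, with a median of -0.15. Over all genes, 64.6% were higher in the fuller libraries and 40.1% in the sparser ones. The 5 accessory subunits Uqcr10, Uqcrh, Uqcrq, Uqcr11 and Uqcrb had log2 fold changes between 0.26 and 0.59. The core proteins Uqcrc1 and Uqcrc2 were at 0.01 and -0.03, and the catalytic subunits Cyc1 (cytochrome c1) and Uqcrfs1 at 0.07 and 0.37. The difference between accessory and core subunits was not tested.

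Uqcr11, the smallest accessory protein of complex III (chr10:80402997-80406830), was at 517, 397, 217, 410 and 263 FPKM in WT 1 to 5. In Homo it had a lowest value of 431, a median of 534 and a highest of 633. All 7 Homo libraries were above the WT median and 4 of 7 above the highest WT library. Mean Uqcr11 was 1.44 times as high in Homo, with a log2 fold change of 0.59 ± 0.21, an exact permutation p of 0.0101 and an adjusted limma p of 0.799. Within the library sets the exact p was 0.0571.

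Uqcrh, the hinge protein that helps cytochrome c1 to meet cytochrome c (chr4:116066965-116075071), was chosen for mention after its values were seen. It was at 450, 473, 262, 466 and 383 FPKM in WT and between 435 and 666 in Homo (median 592), and 6 of 7 Homo libraries were above all WT libraries. Its log2 fold change was 0.49 ± 0.18, with an exact p of 0.0101 in all and 0.0333 within the library sets. Uqcr10 (chr11:4701973-4704342) was at 711, 565, 267, 391 and 263 FPKM in WT and between 492 and 717 in Homo (median 557). WT 1 was close to the highest Homo library, and the log2 fold change was 0.46 ± 0.24 (exact p = 0.105). Uqcrc2 (chr7:120635176-120659524), with the lowest log2 fold change in the complex, was at 132, 126, 87.2, 133 and 143 FPKM in WT and between 96.8 and 140 in Homo.

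Cytochrome c itself did not differ beyond the spread between libraries. Cycs (chr6:50562563-50566538) was at 9.54, 12.3, 12.4, 16.7 and 22.3 FPKM in WT, and at 17.6, 5.58, 2.97, 17.7, 15.7, 17.2 and 23.2 in Homo 1 to 7. Homo 2 and Homo 3 were below all WT libraries and Homo 7 above all of them. The log2 fold change was -0.20 ± 0.41, with an exact p of 0.684.

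In complex IV (cytochrome c oxidase), all 10 ubiquitous or single-copy subunits tested had a higher mean in Homo, with log2 fold changes between 0.22 and 0.62. In the sparser libraries, 3 of these 10 were higher, against 40.1% of all genes. Cox7a2l, a relative of Cox7a2, was at 0.39 ± 0.20 with an unadjusted limma p of 0.0709. One of the 10, Cox6c, had an unadjusted limma p under 0.05.

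Cox6c, a small membrane subunit (chr15:35925886-35938246), was at 431, 334, 198, 266 and 227 FPKM in WT 1 to 5. In Homo it had a lowest value of 345, a median of 409 and a highest of 724. All Homo libraries were above the WT median and 2 of 7 above the highest WT library, WT 1. Mean Cox6c was 1.52 times as high in Homo, with a log2 fold change of 0.62 ± 0.22, an exact p of 0.0189 and an adjusted limma p of 0.818. The exact p was 0.0619 within the library sets and 0.0606 without WT 3. Cox6c shares exon sequence on the opposite strand with Vps13b, which had a mean of 6.00 FPKM, and the library method does not mark strand. Exons of other members also overlap genes on the opposite strand. The highest such neighbour was Cbarp, at 760 FPKM, which overlaps Atp5d (mean 171 FPKM) by 68 bases. Cox4i1 overlaps Emc8 (28.5 FPKM) and Uqcrc2 overlaps Pdzd9 (2.67 FPKM). Atp5o overlaps the antisense genes D430001F17Rik (1.13 FPKM) and Gm15976 (0.04 FPKM). It also shares 130 bases of exon on the same strand with another annotated gene of that name, which has no FPKM value here. The effect of these overlaps on the values was not tested.

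Cox4i1 (chr8:120668222-120674207), which carries the regulatory site for ATP, was at 1207, 1021, 585, 1057 and 669 FPKM in WT and between 713 and 1276 in Homo (median 1086). The groups overlapped over most of their range, and the log2 fold change was 0.25 ± 0.21 (exact p = 0.260). Cox6a1 (chr5:115345642-115348981) was at 754, 873, 298, 378 and 493 FPKM in WT and between 553 and 996 in Homo (median 689). Its log2 fold change was 0.46 ± 0.25 (exact p = 0.129). Cox6b1 (chr7:30616861-30626151), which faces the intermembrane space, was at 552, 454, 194, 395 and 274 FPKM in WT and between 278 and 541 in Homo, with none above the highest WT library. Its log2 fold change was 0.26 ± 0.27. Cox7a2 (chr9:79755361-79759878) was at 181, 223, 55.4, 133 and 111 FPKM in WT and between 145 and 265 in Homo. All 7 Homo libraries were above the WT median, and the log2 fold change was 0.57 ± 0.28 (exact p = 0.0795).

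The second isoforms were present at low levels. Cox6a2, the heart and skeletal muscle form of subunit 6a, was found in every library. It was at 21.5, 14.7, 8.33, 21.5 and 18.0 FPKM in WT and between 9.74 and 27.8 in Homo (median 20.0), which made it between 1.66% and 5.37% of the summed Cox6a1 and Cox6a2 in WT and between 1.28% and 4.04% in Homo. Cox6b2, the testis form of subunit 6b, was at 0.761, 9.09, 14.8, 11.0 and 6.28 FPKM in WT and between 0.783 and 10.7 in Homo (median 3.92). It had the lowest log2 fold change of the complex, -0.62 ± 0.57, with an exact p of 0.365, and WT 1 was as low as the lowest Homo library.

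Cox7a1, the heart and skeletal muscle form of subunit 7a, was listed at 0 in WT 1 and at 5.41, 4.04, 4.40 and 4.03 FPKM in the other WT libraries. In Homo it was listed at 0 in Homo 1, 4 and 5 and at 11.3, 1.53, 4.67 and 9.15 in Homo 2, 3, 6 and 7. Cox4i2, the lung form of subunit 4, was listed at 0 in WT 1 and WT 2 and at 2.47, 0.567 and 10.2 FPKM in WT 3 to 5. In Homo it was listed at 0 in Homo 4 and 5 and at 0.552, 4.12, 1.51, 0.352 and 2.21 in the others. All libraries listing either gene at 0 are among the sparser ones.

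The balance of isoforms was compared as the log2 ratio of FPKM + 1 of the second gene to the main gene, for 6 pairs. The mean ratio was lower in Homo for all 6, by between 0.34 (Cox6a2 over Cox6a1) and 0.98 (Cox7a1 over Cox7a2) on the log2 scale. The median share of the second gene in the pair was not lower in Homo for Cox4i2 (0.0536% in WT, 0.0773% in Homo). For Atp5g2 it was 22.1% in both. None passed the exact permutation test, with p between 0.260 and 0.551 and adjusted p between 0.492 and 0.551 over the 6 ratios. The Cox7a1 and Cox4i2 ratios each include 4 libraries with the second gene listed at 0. The Cox7a1 ratio was lower by 1.60 without WT 1 and by 0.59 without WT 3. With a pseudocount of 0.1 it was lower by 1.70, and with the library set as a term by 0.33. Both c ring ratios have Atp5g3 as the main gene. In both, Homo 1 and Homo 2 lay below all WT libraries and the other Homo libraries within the WT range. The c ring ratios were lower by 0.65 for Atp5g1 over Atp5g3, and by 0.29 without Homo 1, and lower by 0.50 for Atp5g2 over Atp5g3, and by 0.24 without Homo 1 and 0.22 without Homo 2. The Cox6b2 over Cox6b1 ratio was lower by 0.88, and by 1.57 without WT 1, where the exact p was 0.0333. The Cox6a2 over Cox6a1 ratio was -4.93 ± 0.62 (SD, n = 5) in WT and -5.27 ± 0.54 (n = 7) in Homo. In the sparser libraries, 3 of the 6 ratios turned higher in Homo.

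**Figure D4:**
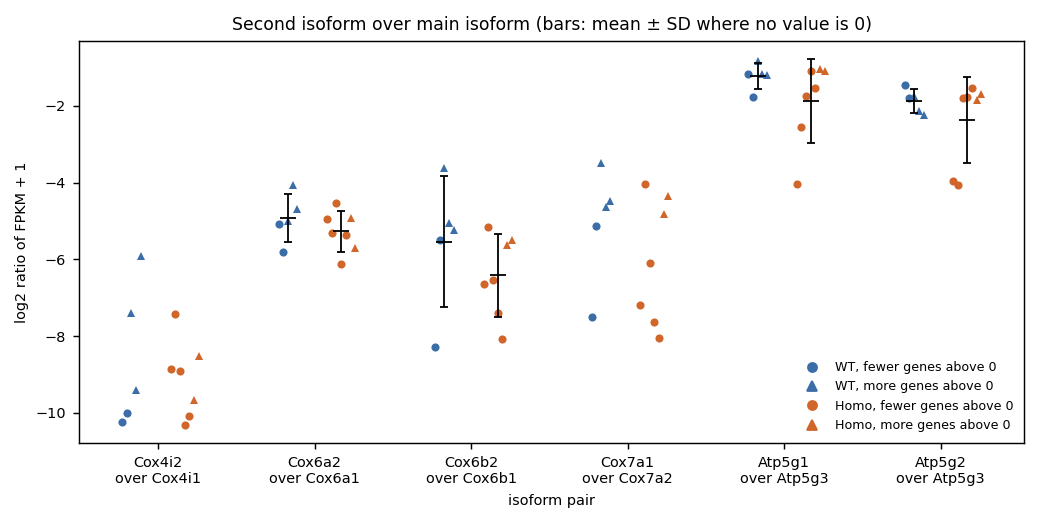
Log2 ratio of FPKM + 1 of the second isoform to the main one for 6 pairs, 1 point per library, with WT in blue, Homo in orange and triangles for fuller libraries. Bars are the mean ± SD of each genotype, drawn only where no library was at 0. The genotypes overlap in all 6 pairs, and 2 Homo libraries lie below all WT libraries for both c ring ratios.

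In ATP synthase, 12 of 15 subunits tested had a higher mean log2 value in Homo, with a median log2 fold change of 0.32. In the fuller libraries all 15 were higher, against 64.6% of all genes, and in the sparser ones 5 were, against 40.1%. Atp5o, the oligomycin sensitivity protein that ties the catalytic head to the peripheral stalk (chr16:91925214-91931687), had the smallest p of the complex. It was at 196, 216, 126, 192 and 180 FPKM in WT 1 to 5. In Homo it had a lowest value of 207, a median of 246 and a highest of 273. All Homo libraries were above the WT median and 5 of 7 above the highest WT library. Mean Atp5o was 1.32 times as high in Homo, with a log2 fold change of 0.42 ± 0.16, an exact p of 0.00505 and an adjusted limma p of 0.854. Within the library sets the exact p was 0.0333.

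Atp5b (chr10:128083273-128090391) was not higher in Homo. It was at 2180, 1475, 1126, 1713 and 1691 FPKM in WT and between 1110 and 1892 in Homo (median 1477), and no Homo library was above WT 1. Its log2 fold change was -0.11 ± 0.19 (exact p = 0.538), while that of Atp5a1, the partner of Atp5b in the catalytic head, was 0.32 ± 0.20 (exact p = 0.111). Atp5e, the small ε subunit of the central stalk (chr2:174461072-174464105), had the highest log2 fold change of all subunits and was named after its values were seen. It was at 723, 861, 287, 420 and 321 FPKM in WT and between 631 and 906 in Homo (median 779). WT 1 and WT 2 lay within the range of Homo and the other 3 WT libraries below it. Its log2 fold change was 0.68 ± 0.26, with an exact p of 0.0354 in all and 0.0571 within the library sets, and it was 0.05 in the sparser libraries. The membrane subunits Atp5k, Atp5j2 and Atp5l were at 0.54, 0.47 and 0.39, and all were at or below 0 in the sparser libraries.

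Of the 3 c ring genes, 1 had a higher and 2 a lower mean log2 value in Homo. Atp5g3 (chr2:73908447-73911326) was at 309, 281, 143, 289 and 193 FPKM in WT and between 284 and 378 in Homo (median 309). All Homo libraries were above the WT median, with a log2 fold change of 0.43 ± 0.19 and an exact p of 0.0215 (0.114 within the library sets, 0.0606 without WT 3 and 0.0515 without WT 5). Atp5g1 (chr11:96068852-96075670) was at 137, 81.4, 79.6, 128 and 84.2 FPKM in WT and at 22.0, 51.8, 94.9, 132, 113, 146 and 133 in Homo 1 to 7. Atp5g2 (chr15:102662864-102672352) was at 111, 79.7, 42.0, 64.8 and 39.8 FPKM in WT and at 23.4, 17.4, 91.4, 82.9, 113, 83.3 and 87.7 in Homo 1 to 7. Homo 1 and Homo 2 were below all WT libraries for both genes, and the log2 fold changes of -0.22 ± 0.40 and -0.07 ± 0.46 were within the spread.

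As a share of the summed FPKM of the 3 c ring genes, Atp5g3 made up between 54.0% and 63.6% in WT. It made up 89.3% in Homo 1, 81.7% in Homo 2 and between 56.4% and 63.4% in the other 5 Homo libraries. The sum over the 3 genes was 424 and 378 FPKM in Homo 1 and Homo 2, against 265 to 556 in WT and 499 to 554 in the other Homo libraries. Near-identical copies elsewhere in the genome, sharing at least 200 bases at 95% identity, were listed for 14 members. The copies of Atp5g2 had a summed mean of 11.2% of that of Atp5g2, and those of no other member exceeded 1.2%.

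Other genes of the same machinery were counted from 7 lists, of which 41 genes were tested. None had an adjusted p under 0.05. At an unadjusted limma p under 0.05, 3 were higher and 0 lower, against 3.05% and 2.50% of all genes tested. The mean was higher in Homo for 31 of the 41, against 49.3% of all genes. Their median log2 fold change was 0.13 (-0.01 over all genes). It was 0.43 in the fuller libraries and -0.06 in the sparser ones (0.13 and -0.08 over all genes). The 28 assembly factors had a median of 0.12, with 19 higher in Homo. Among the 4 factors of complex II the smallest p was that of Sdhaf1, which helps to insert the iron-sulphur clusters of Sdhb, at 0.50 ± 0.30. Of the 16 factors of complex IV, 2 were higher in Homo at an unadjusted p under 0.05, against 3.05% of all genes. Coa3, which stabilizes newly made Cox1 protein, was at 49.1 ± 19.2 FPKM (SD, n = 5) in WT and 74.4 ± 8.54 (n = 7) in Homo, with an adjusted limma p of 0.818. The other was Cox17, a copper chaperone, at 0.56 ± 0.24. Among the factors of complex III, the smallest p was that of Ttc19, at -0.49 ± 0.24, and among those of ATP synthase that of Atpaf2, at -0.99 ± 0.47. Atpaf2 lay between 3.35 and 49.7 FPKM in WT and between 2.96 and 8.73 in Homo.

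Of the 4 other nuclear subunits, 2010107E04Rik, a small protein bound to ATP synthase, had the smallest p of all these lists. WT libraries lay between 204 and 489 FPKM and Homo libraries between 457 and 587, with a log2 fold change of 0.61 ± 0.20 and an adjusted limma p of 0.783. The phosphate carrier Slc25a3, with the smallest p of the 3 carriers tested, was at 0.12 ± 0.17. All 6 mitochondrially encoded partners had a higher mean in Homo, against 49.3% of all genes tested. Their median log2 fold change was 0.47 in all 12 libraries, 0.73 in the fuller libraries and 0.01 in the sparser ones. The smallest p was that of mt-Co3, which lay between 3161 and 6772 FPKM in WT and between 3894 and 9055 in Homo, with a log2 fold change of 0.50 ± 0.24 and an adjusted limma p of 0.899.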

How the data were processed

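RNA from ARC cut by laser capture out of 14 µm brain cryosections was amplified across the whole transcriptome by the authors, fragmented to 200 bases and sequenced. The submitters' processing notes name TopHat2 2.0.8, Cufflinks 2.2.1 and GRCm38. The authors deposited FPKM values for 1 gene per line; whether they scaled libraries further is not given in the sources used here, and the table holds no counts, so depth is known only in part. All 12 columns were matched to mice by label, and 0 were left over. Values were taken as log2(FPKM + 1). The 14017 genes with a mean of at least 1 FPKM entered limma 3.58.1 (R 4.3.3, trended and robust variances) with a single genotype term, and p-values were adjusted over all of them by Benjamini-Hochberg. Single members and isoform ratios were tested by exact two-sided permutation, for which the smallest p is 0.00126. The limma step was tested on simulated data. The rule, the lists and the tests were chosen with earlier results of these data known. Values in each library are given for the member of each complex with the smallest limma p, the lowest log2 fold change and the highest mean, and for all complex II subunits, c ring genes, Cycs, isoform pairs with a mean of at least 1 FPKM, and members with no overlap between genotypes. In the other lists, the gene with the smallest p is named. Gene positions are from GENCODE release M21, promoter windows from RefSeq, and copies were searched with BLAST 2.17.0. A fold change on the log2(FPKM + 1) scale understates that of low genes. Alternatives covered filters, the pseudocount, 2 scalings, array weights, the library set, a replicate block and each library left out. Those without WT 3 among the fuller libraries, and the interaction term, were added after seeing the data.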

Additional observations from a re-analysis of the deposited data

Results flagged for a closer look

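In 3 of the 44 groups of libraries examined (WT and Homo for each of the 22 members whose values are given), 1 library lay far from the others of its genotype by Dixon's criterion at the 95% level, which chance alone gives in about 1 group of 20. Cox6c was at 724 FPKM in Homo 2, against 345 to 457 in the other Homo libraries. Cox4i2 was at 10.2 FPKM in WT 5, against 0 to 2.47 in the other WT libraries. Cox7a1 was listed at 0 in WT 1, against 4.03 to 5.41 in the other WT libraries.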

How the results depend on the processing

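No alternative gave a member an adjusted p under 0.05. The 7 members with an unadjusted p under 0.05 and a higher level in Homo became 13 with upper-quartile scaling, 13 with array weights, 0 in the sparser libraries and 12 in the fuller ones, and between 4 (without WT 3) and 14 (without WT 1) with 1 library left out. Over all genes, the share higher at that threshold was 3.05%, and 3.88%, 4.13%, 1.49% and 4.04% under the first 4 of these. The numbers shared by WT and Homo libraries did not pair them (correlations of deviations between -0.05 and 0.03). The replicate block gave 6 higher and 1 lower, against 3.15% and 3.77% of all genes. With 1 library left out the count of lower members was between 0 and 1. The members' median log2 fold change of 0.27 was between 0.12 and 0.37 with 1 library left out, 0.22 with the library set as a term and -0.07 in the sparser libraries. Of the 22 members named by library, 7 kept the sign of their difference in every alternative. Signs turned for Atp5g2 (0.15) and Cox6a2 (-0.009) with array weights, and for Cycs (0.046), Cox4i2 (0.050) and Cox7a1 (0.064) with the library set as a term. In the sparser libraries they turned for Uqcr10 (-0.15), Cox4i1 (-0.14), Sdhd (-0.44), Cox4i2 (0.86), Cox6a2 (-0.023), Cox6a1 (-0.20), Cox6b1 (-0.35) and Cox7a2 (-0.062), and for the ratios of Cox4i2 (1.00), Cox6a2 (0.17) and Cox6b2 (0.13) to their main forms. In the fuller libraries they turned for Uqcrc2 (0.15), Cycs (0.24), Atp5g1 (0.55), Atp5b (0.19), Atp5g2 (0.83), Cox7a1 (0.56) and the Atp5g2 ratio (0.27). Without WT 3 in that set they turned for Cycs (0.045), Cox6b2 (0.19), Atp5g1 (0.42), Atp5g2 (0.74), Cox6a2 (-0.20), Cox7a1 (0.54) and the ratios of Atp5g1 (0.10) and Atp5g2 (0.42). With 1 library left out, Uqcrc2 ranged from -0.15 to 0.028, Cycs from -0.35 to 0.087, Atp5g1 from -0.35 to 0.10, Atp5g2 from -0.23 to 0.21, Cox4i2 from -0.56 to 0.31, Cox6a2 from -0.10 to 0.24, the Cox4i2 ratio from -0.93 to 0.15, the Cox7a1 ratio from -1.60 to -0.59, the Atp5g1 ratio from -0.78 to -0.29 (without Homo 1), the Atp5g2 ratio from -0.64 to -0.22 (without Homo 2) and the Cox6b2 ratio from -1.57 to -0.40. The cause was not tested. The exact test cannot pass in the fuller libraries (2 against 3) or under the block (5 pairs). Depth is unclear in at least 7 libraries, so for Cox7a1, Cox4i2 and Cox7b2 an absence cannot be told from a low level.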
